A study of Mus musculus with 10 samples.

Results

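Laminins, integrins and the proteins that link them are described here at the RNA level in whole mouse embryos at embryonic day 11.5 (E11.5). The genes were chosen by symbol: every laminin chain, every integrin alpha and beta subunit, and the matrix genes *Nid1*, *Nid2*, *Hspg2*, *Agrn* and *Fn1*, where the gene had a mean normalized count above 0. This gave 42 genes of the 24302 in the table, and of those 24302 genes 20665 had a mean above 0. The 42 genes were 5 laminin alpha, 3 laminin beta and 3 laminin gamma chains, 18 integrin alpha and 8 integrin beta subunits, and 5 linkers and ligands.

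The study sequenced poly(A) RNA of 10 C57BL/6 embryos: 3 wildtype (*Wwc2*+/+), 3 heterozygous (*Zp3-Cre-Wwc2* KO/+, labelled WWC2-/+) and 4 homozygous (*Zp3-Cre-Wwc2* KO/KO, labelled WWC2-/-). *Wwc2* encodes a scaffold protein of the Hippo pathway. *Zp3-Cre* is active in growing oocytes. The value used here is the authors' mean of the normalized count over all 10 embryos, and it mixes the 3 genotypes. Its reach over all 10 embryos was inferred, since DESeq2 takes this mean over all samples of a fit and the mean was the same, to a relative tolerance of 1e-06, in both deposited tables for all 24302 genes. It has no value per embryo, no SD and no test, and a difference between genotypes was not analysed here. The levels below describe the 10 embryos as a pool. In RNA of whole embryos, fewer cells of a type and less RNA per cell cannot be told apart.

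A basement membrane is a thin sheet of matrix under epithelia and endothelia and around muscle, nerve and fat cells. Laminins are trimers of an alpha, a beta and a gamma chain that assemble into a network on the cell surface. Nidogens, perlecan (*Hspg2*) and agrin (*Agrn*) bind that network and tie it to collagen IV or to the cell. Integrins are heterodimers of an alpha and a beta subunit that span the membrane, bind laminin, fibronectin (*Fn1*), collagen or other ligands outside, and bind the actin cytoskeleton through adaptors inside. In the mouse, loss of the gamma chain *Lamc1*, of *Itgb1* or of *Fn1* is lethal to the embryo.

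Summed over all genes, the mean normalized counts came to 2.56e+07, of which the 42 genes took 0.550%. Their median mean normalized count was 865, against 307 over all genes with a mean above 0. A mean normalized count of at least 100 was found in 33 of the 42 genes, against 61% of all such genes, and a count of at least 1000 in 20 of the 42, against 30.1%. The median gene of the 42 stood at percentile 66.9 of all genes with a mean above 0, and at 54.7 by level per kb. By normalized count, not corrected for length, 13 of the 42 genes were at or above percentile 90 and 2 were below percentile 25. Divided by exon length in kilobases (kb), the median of the 42 was 105 normalized counts per kb, against 78.4 over all genes with a length.

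**Figure D1:**
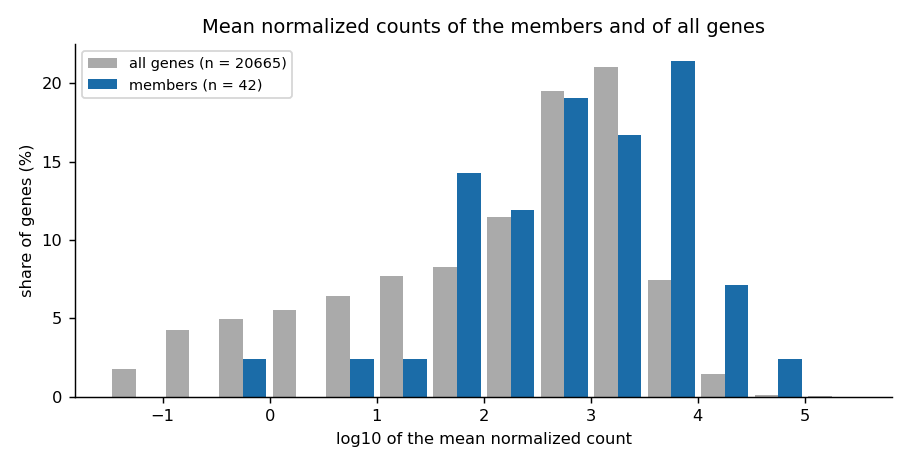
Share of genes (percent, vertical axis) in bins of the log10 of the mean normalized count (horizontal axis) for all 20665 genes with a mean above 0 (grey) and for the 42 laminin, integrin and linker genes (blue). The blue bars lie above the grey bars in the bins from log10 3.5 upward that hold members. They also lie above them in the bins from log10 1.5 to 2.5, and 2 of the 42 genes lie below log10 1.

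A long transcript gives more reads than a short transcript of the same abundance. Single genes were therefore ranked per kb of the union of their annotated exons, except where another length or no length correction is named. Positions among all genes, count thresholds and medians of gene lists were given as normalized counts, except where per kb is named. Per kb, the 42 genes ran from 0.0835 normalized counts per kb for *Itgad* to 3429 for *Itgb1*. The linkers were the evenest class, with 3.22 times between their highest and lowest gene per kb and at most 6.07 times under the other lengths or without length correction. The laminin alpha chains differed by 31.9 times and the beta chains by 63.9 times per kb. The integrin beta subunits differed by 426 times and the alpha subunits by 6558 times per kb. The alpha figure rests on *Itgad*, whose mean normalized count was only 0.377, so its size is uncertain. The next lowest alpha subunit, *Itgax*, had 1.06 per kb.

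**Figure D2:**
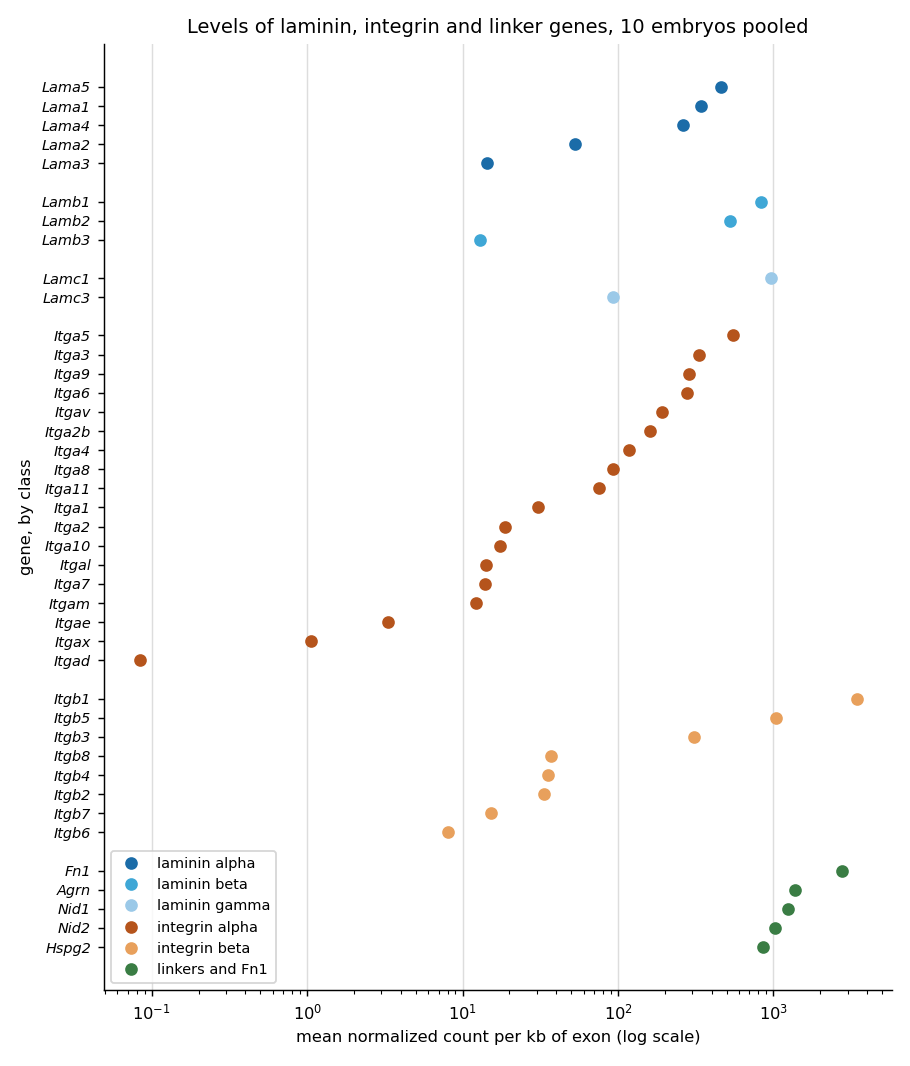
Level of 41 of the 42 genes in mean normalized counts per kb of exon (horizontal axis, log scale), listed by class (vertical axis), each point being the mean over all 10 embryos with no error available. *Itgb1* (3429 per kb) and *Fn1* (2754 per kb) lie farthest to the right, and *Itgax* (1.06 per kb) and *Itgad* (0.0835 per kb) farthest to the left.

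Among the laminin alpha chains, which carry the domains that bind cell receptors, 3 chains made up 94.1% of the class level per kb. *Lama5*, the broadly expressed alpha chain of epithelial and vascular basement membranes, led with 457 normalized counts per kb (mean normalized count 5203), which was 40.4% of the class. It is ENSMUSG00000015647 on chromosome 2 of GRCm38, chr2:180176373-180225859, minus strand. *Lama1*, the alpha chain of the earliest embryonic basement membranes (ENSMUSG00000032796, chr17:67697259-67822647, plus strand), had 344 normalized counts per kb and a mean normalized count of 3328. *Lama4*, found in vessels and mesenchyme (ENSMUSG00000019846, chr10:38965515-39110188, plus strand), had 262 normalized counts per kb and a mean normalized count of 3166. *Lama5* stood 1.33 times above *Lama1* per kb, and *Lama1* 1.31 times above *Lama4*, a ratio that fell to 0.619 per kb of coding length.

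The order of these 3 alpha chains depended on the length used. Per kb of the longest annotated transcript or of the longest coding sequence, *Lama4* led the class and *Lama5* was next, since the exons annotated for *Lama4* cover 12068 bases while its longest transcript has 6046. *Lama2*, the alpha chain of muscle and peripheral nerve, had 52.5 normalized counts per kb (mean normalized count 858). *Lama3*, the alpha chain of the epidermal laminin, was lowest under every length, with 14.3 normalized counts per kb and a mean normalized count of 154.

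The beta and gamma chains were each dominated by the member that enters most embryonic laminins. *Lamb1* (ENSMUSG00000002900, chr12:31265234-31329644, plus strand) had 832 normalized counts per kb and a mean normalized count of 8249, and took 60.5% of the beta chain level. *Lamb2*, the beta chain of the neuromuscular junction, vessels and kidney glomerulus (ENSMUSG00000052911, chr9:108479736-108490530, plus strand), had 529 per kb and a mean normalized count of 3218. *Lamb3*, the beta chain of the epidermal laminin (ENSMUSG00000026639, chr1:193207699-193343878, plus strand), had 13.02 per kb and a mean normalized count of 86.1. *Lamb2* thus stood 40.6 times above *Lamb3* per kb, and 24.3 times per kb of coding length. *Lamb1* stood 1.57 times above *Lamb2* per kb of union exon, and between 2.49 and 2.56 times per kb of longest transcript or coding length or without length correction.

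*Lamc1*, the gamma chain of nearly all laminin trimers (ENSMUSG00000026478, chr1:153218922-153332786, minus strand), had 969.7 normalized counts per kb and a mean normalized count of 8022, which was 87.0% of the gamma chain level per kb. *Lamc3*, a gamma chain of fewer tissues, had 92.4 normalized counts per kb and a mean normalized count of 563.

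Each laminin trimer holds 1 chain of each kind, and the summed levels of the 3 kinds were of similar size per kb of union exon. They came to 1130 normalized counts per kb for the alpha chains, 1374 for the beta chains and 1115 for the gamma chains. The beta chains stood 1.22 times above the alpha chains and 1.23 times above the gamma chains per kb, and the gamma chains at 0.987 of the alpha chains. The ratio of beta to alpha chains was 1.41 per kb of longest transcript and 1.40 per kb of coding length. It was 0.909 without length correction, since alpha chain transcripts are longer. The summed counts without length correction were 12709 for the alpha, 11554 for the beta and 9011 for the gamma chains. Ratios to the gamma chains were computed only per kb of union exon, so their closeness under the other lengths is not shown.

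**Figure D3:**
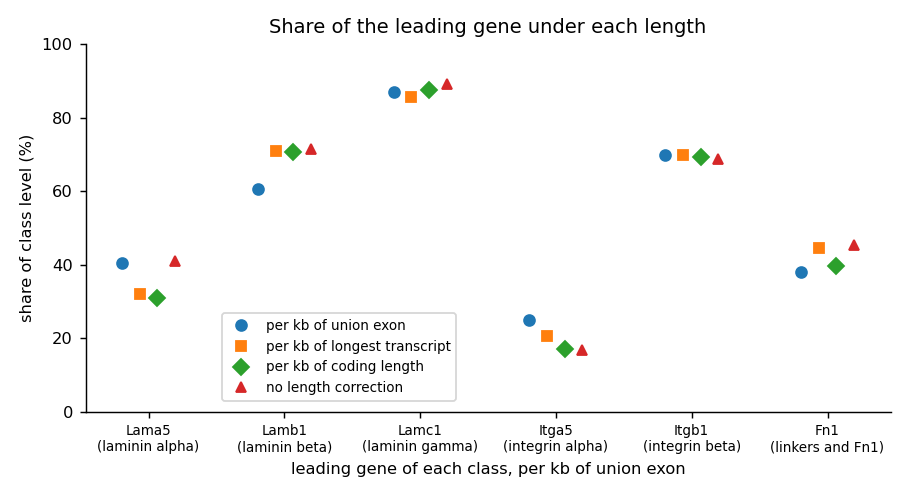
Share of the leading gene in the summed level of its class (percent, vertical axis) for the 6 classes (horizontal axis), computed per kb of union exon, of longest transcript and of coding length, and without length correction. *Lamc1* lies between 85.5% and 89.0% and *Itgb1* between 68.7% and 69.8%, while *Lama5* runs from 30.8% to 40.9% and *Itga5* from 16.8% to 24.96%.

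The linkers and fibronectin were high throughout, and per kb all 5 stood at or above percentile 92.3 of all genes. *Fn1*, the ligand of the integrin of *Itga5* and *Itgb1* and a protein of blood vessels and mesenchyme (ENSMUSG00000026193, chr1:71585520-71653200, minus strand), had a mean normalized count of 32186 and 2754 per kb, or 38.1% of the class. *Agrn*, a heparan sulfate proteoglycan that also binds dystroglycan (ENSMUSG00000041936, chr4:156165290-156197488, minus strand), had a mean normalized count of 12717 and 1369.6 per kb. *Hspg2*, the gene of perlecan (ENSMUSG00000028763, chr4:137468769-137570630, plus strand), had a mean normalized count of 12234 and 855 per kb. It is the gene with the longest coding sequence of the 42, and *Agrn* stood 1.60 times above it per kb, and 1.04 times without length correction. It was lowest of the linkers under each of the 3 lengths, while *Nid2* was lowest without length correction.

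The nidogens, which bridge laminin and collagen IV, lay close to each other. *Nid1* (ENSMUSG00000005397, chr13:13437551-13512269, plus strand) had 1234 normalized counts per kb and a mean normalized count of 8569. *Nid2* (ENSMUSG00000021806, chr14:19751265-19811787, plus strand) had 1024 per kb and a mean normalized count of 5300. *Nid1* stood 1.20 times above *Nid2* per kb, and 1.82 times per kb of coding length.

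The integrin beta subunits were dominated by *Itgb1* and *Itgb5*, which together took 91.0% of the class level per kb. *Itgb1*, the common partner of the laminin, collagen and fibronectin receptors (ENSMUSG00000025809, chr8:128685654-128733200, plus strand), had a mean normalized count of 13992 and 3429 per kb, which was 69.8% of the class. This was the highest level of the 42 genes per kb of union exon and of coding length, while *Fn1* was higher per kb of longest transcript (3871 against 3668) and without length correction. *Itgb5*, a partner of *Itgav* in vitronectin receptors (ENSMUSG00000022817, chr16:33829665-33949338, plus strand), had a mean normalized count of 3701 and 1042 per kb. *Itgb1* stood 3.29 times above *Itgb5* per kb. *Itgb3*, the beta subunit of platelets and of another *Itgav* receptor, followed with 310.2 per kb and a mean normalized count of 1831.

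The other 5 beta subunits lay below 40 normalized counts per kb. *Itgb8*, a subunit of the neuroepithelium that serves activation of TGF-beta, had 36.8 per kb. *Itgb4*, the subunit of hemidesmosomes in stratified epithelia, had 35.5 per kb, and *Itgb2*, the leukocyte subunit, had 33.6 per kb. *Itgb7*, a subunit of lymphocyte homing, had 15.2 per kb, and *Itgb6*, an epithelial subunit, was lowest with 8.04 per kb and a mean normalized count of 57.2. *Itgb7* was the lowest per kb of coding length and without length correction.

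The integrin alpha subunits were spread over more genes than the beta subunits, and the leading 3 took 53.1% of the class level per kb. *Itga5*, the alpha subunit of the main fibronectin receptor (ENSMUSG00000000555, chr15:103344286-103366763, minus strand), led with 547.5 normalized counts per kb and a mean normalized count of 2701, and it led under every length. It took 24.96% of the class per kb. *Itga3*, a laminin receptor subunit of epithelia and kidney (ENSMUSG00000001507, chr11:95044474-95076801, minus strand), had 332.1 per kb and a mean normalized count of 1896. *Itga9*, a subunit of lymphatic and muscle cells that binds tenascin and other ligands (ENSMUSG00000039115, chr9:118606690-118901003, plus strand), had 285 per kb and a mean normalized count of 2189. *Itga6*, the laminin receptor subunit shared by *Itgb1* and *Itgb4* (ENSMUSG00000027111, chr2:71745616-71858416, plus strand), had 279.5 per kb and a mean normalized count of 2523. *Itga6* ranked next to *Itga5*, above *Itga3* and *Itga9*, per kb of longest transcript and of coding length and without length correction. Its level rose by 2.09 times with the longest transcript, the largest move of the 42 genes under that length.

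Below these 4 lay 5 alpha subunits between 75.8 and 193 normalized counts per kb. *Itgav*, which pairs with 5 beta subunits and binds RGD motifs (an arginine, glycine and aspartate sequence in matrix proteins), had 193 per kb. *Itga2b*, the subunit of platelets and megakaryocytes, had 160.0 per kb. *Itga4*, which binds fibronectin and VCAM1, had 117 per kb, *Itga8*, a nephronectin receptor subunit of the kidney, 93.0, and *Itga11*, a collagen receptor subunit of mesenchyme, 75.8. *Itga4* and *Itgav* passed 10% of the class per kb of coding length, which is 3096 and 3132 bases against 13978 and 10744 bases of annotated exons.

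The lower alpha subunits were mostly those of the collagen receptors, of muscle and of leukocytes. *Itga1* had 30.5 normalized counts per kb and *Itga2*, another collagen receptor subunit, 18.6. These neighbours on chromosome 13 lie 20995 bases apart on the minus strand, and *Itga1* stood 1.64 times above *Itga2* per kb. That ratio was 2.77 per kb of longest transcript and 4.27 per kb of coding length. The level of *Itga1* per kb rose by 5.26 times with the coding length, the largest move of the 42 genes under that length. *Itga10*, a collagen receptor subunit of cartilage, had 17.3 per kb, and *Itga7*, the laminin receptor subunit of muscle, 13.9.

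Sorted by the ligand for which they are best known, the 4 RGD-binding alpha subunits (*Itga5*, *Itga8*, *Itgav*, *Itga2b*) took 45.3% of the alpha subunit level per kb. The 3 laminin-binding subunits (*Itga3*, *Itga6*, *Itga7*) took 28.5%, and *Itga4* with *Itga9* took 18.3%. The 4 collagen-binding subunits took 6.48% and the 5 subunits of leukocytes 1.40%. The order of these groups was the same for the longest transcript, the coding length and no length correction, with the RGD-binding group between 39.5% and 45.3%.

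The leukocyte subunits included the 3 lowest genes of the 42. *Itgal* had 14.2 normalized counts per kb and *Itgam*, a subunit of macrophages and granulocytes, 12.1. *Itgae*, a subunit of mucosal lymphocytes, had 3.29 per kb and *Itgax*, a subunit of dendritic cells, 1.06. *Itgad* (ENSMUSG00000070369, chr7:128154376-128223816, plus strand) had the lowest level of the 42 genes with 0.0835 per kb, and a mean normalized count of 0.377. *Itgam*, *Itgax* and *Itgad* follow each other on the plus strand of chromosome 7 with gaps of 11.1 and 3.72 kb. The level per kb fell from gene to gene along this row, by 11.5 times from *Itgam* to *Itgax* and by 12.7 times from *Itgax* to *Itgad*. Both lower genes had few counts, with means of 5.08 for *Itgax* and 0.377 for *Itgad*, so these ratios are uncertain. Exons of another annotated gene on the same strand cover 68.7% of the exon length of *Itgam*, so reads there may have been left out of its count or shared, and its value is uncertain. The same holds for 33.5% of *Itga10*, 7.32% of *Itgad* and 3.68% of *Itga1*. On the opposite strand only, 11 further genes of the 42 share exons with another gene, among them *Nid2* (8.45%) and *Itga4* (8.04%). *Itgad* shares 12.4% on that strand as well. Whether these overlaps affected the counts depends on the strand setting of the counting, which is not given.

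Leukocyte markers were read from the same pool. Of 8 leukocyte markers, 7 were found in the table, with a median mean normalized count of 88.9. The T cell genes *Cd3e* and *Cd8a* had 0.143 and 0.283 normalized counts per kb, while the macrophage gene *Csf1r* had 175. All 6 platelet and megakaryocyte markers were above 0, as were 20665 of all 24302 genes. They ran from 38.1 normalized counts per kb for *Gp1ba* to 1073 for *Pf4*, with *Itga2b* itself at 160.0.

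Integrins reach the cell surface only as pairs, and each beta subunit was therefore set beside the summed level of its known alpha partners per kb. *Itgb1* stood at 1.71 times its 12 partners and *Itgb5* at 5.40 times *Itgav*. *Itgb2* stood at 1.22 times its 4 leukocyte partners and *Itgb3* at 0.879 of *Itgav* and *Itga2b*. The ratio of *Itgb2* is uncertain, because its partners include *Itgam*, whose exons overlap those of another gene. *Itgb4* stood at 0.127 of *Itga6*, *Itgb7* at 0.126 of *Itga4* and *Itgae*, *Itgb8* at 0.191 of *Itgav* and *Itgb6* at 0.0417 of *Itgav*. Under the other lengths or without length correction, the ratio fell as low as 0.0255 for *Itgb7*, 0.0276 for *Itgb6* and 0.0592 for *Itgb4*, and *Itgb3* fell to 0.578. *Itgb7*, not *Itgb6*, was the lowest of the 8 per kb of coding length and without length correction. An alpha subunit with several partners is counted once for each, so these ratios do not add up.

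Summed over the classes, the beta subunits stood at 2.24 times the alpha subunits per kb, and at 1.27 times without length correction. Both *Itgb1* and *Itgb2* were below their partners without length correction, at 0.933 and 0.643, and *Itgb2* also per kb of coding length (0.991). *Itgb5* was above *Itgav* under every length, between 1.78 and 5.40 times. *Itgb3*, *Itgb4*, *Itgb6*, *Itgb7* and *Itgb8* were below their partners under every length.

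**Figure D4:**
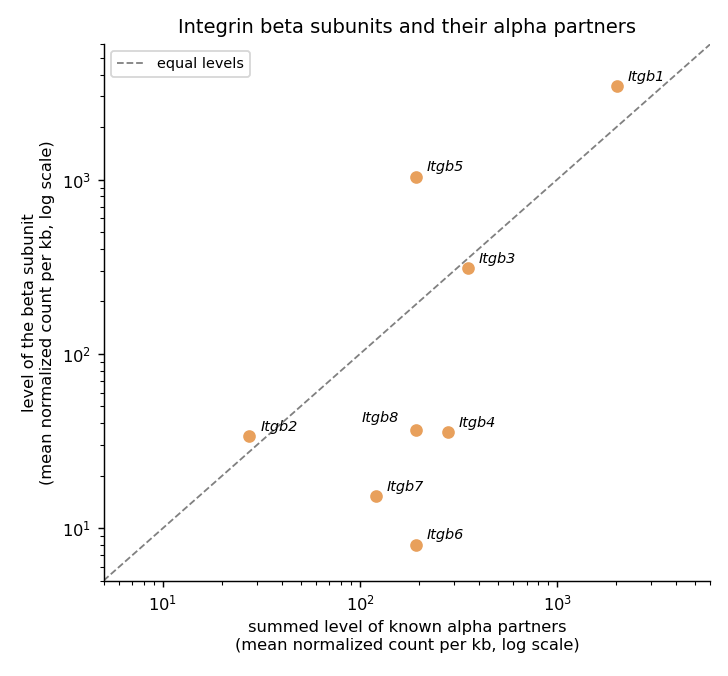
Level of each integrin beta subunit (vertical axis) against the summed level of its known alpha partners (horizontal axis), both in mean normalized counts per kb of exon on log scales, with a dashed line at equal levels. *Itgb1*, *Itgb5* and *Itgb2* lie above the line, and the level of *Itgam*, a partner of *Itgb2*, is uncertain. On this length *Itgb6* lies farthest below the line at 0.0417 of *Itgav*, while *Itgb7* is lowest per kb of coding length and without length correction.

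The start sites of the highest and the lowest gene with a promoter entry are shown to let the CG content of the letters be compared. RefSeq promoter windows of GRCm38.p6, 250 bases before to 50 bases after a start site, were found for 26 of the 42 genes. They were missing for 16 genes, among them *Fn1*, *Itga6*, *Itga7*, *Itgad*, *Itgae*, *Itgal*, *Itgb2*, *Itgb3*, *Itgb4*, *Lama1*, *Lama3*, *Lama4*, *Lamc1*, *Lamc3* and *Nid2*. The first 240 bases of each window are printed on the gene's own strand, 5′ to 3′, with each CG dinucleotide in capitals. The printed bases of *Itgb1* are chr8:128685404-128685643 and those of *Itgax* chr7:128129300-128129539, both on the plus strand.
Itgb1: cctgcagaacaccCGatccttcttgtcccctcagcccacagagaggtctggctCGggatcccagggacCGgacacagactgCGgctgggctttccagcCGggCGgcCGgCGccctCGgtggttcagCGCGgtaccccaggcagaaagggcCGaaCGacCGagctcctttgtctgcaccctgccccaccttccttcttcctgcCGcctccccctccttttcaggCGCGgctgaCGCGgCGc
Itgax: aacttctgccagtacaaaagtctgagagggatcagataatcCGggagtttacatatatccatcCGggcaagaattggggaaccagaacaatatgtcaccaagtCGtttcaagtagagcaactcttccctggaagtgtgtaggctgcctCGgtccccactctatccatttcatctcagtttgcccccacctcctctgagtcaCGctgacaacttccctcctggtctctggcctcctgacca

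The 240 bases of *Itgb1* hold 20 CG dinucleotides and those of *Itgax* hold 5. In the whole windows of 300 bases, *Itgb1* had 27, *Agrn* had 42, the most of the 26 genes, and *Lama2* had 1, the fewest. The 13 genes at 1000 normalized counts or more had a median of 20 CG dinucleotides, and the 13 below 1000 a median of 6. At least 10 CG dinucleotides were found in 12 of the former 13 and in 6 of the latter 13, against 66.1% of the 14763 windows of all genes with a mean above 0. The exception among the former was *Lamb2*, with 4 CG dinucleotides at 529 normalized counts per kb. Among the 13 genes below 1000, *Lama2* and *Lamb3* had the fewest, 1 and 2. Their windows lie 2.82 and 94.3 kb from the annotated start, and the median of 6 would be higher without these genes.

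Over all genes with a window, the median was 24 CG dinucleotides at a mean normalized count of at least 1000 and 11 below it. Across the 26 genes, Spearman's rho of the CG count with the level per kb was 0.677, and across 14526 genes with both values it was 0.532. These are correlations across genes of 1 pooled mean, and genes are not independent replicates. The count was made on 1 strand, since CG reads the same on both, and only for the RefSeq start site nearest to the annotated start of the gene. That site lay within 1000 bases of the annotated start for 23 of the 26 genes. It lay 2.82 kb away for *Lama2*, 94.3 kb for *Lamb3* and 105 kb for *Itga9*, and their CG counts are not of the annotated start. Across the other 23 genes Spearman's rho was 0.687.

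**Figure D5:**
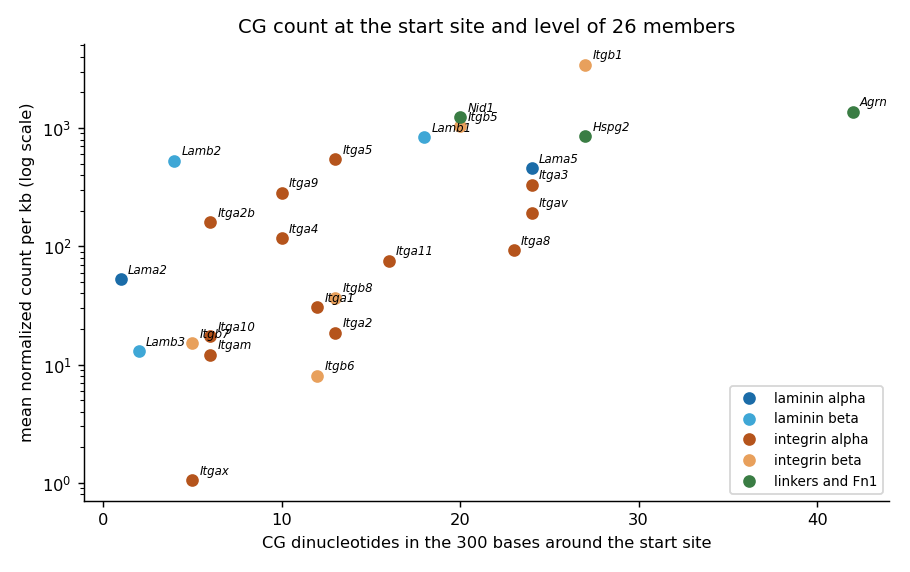
Level in mean normalized counts per kb of exon (vertical axis, log scale) against the number of CG dinucleotides in the 300-base window at the start site (horizontal axis) for the 26 genes with a window, coloured by class. *Agrn* (42 CG, 1369.6 per kb) lies farthest to the right, *Lamb2* (4 CG, 529 per kb) stands above the other genes with few CG, and *Itgax* (5 CG, 1.06 per kb) is lowest.

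The other components of the sheet spanned a wide range. All 23 genes of a list of collagen IV chains and other sheet proteins had a mean above 0. Of these, 17 reached 1000 normalized counts, against 30.1% of all genes with a mean above 0. *Col4a1* and *Col4a2*, the collagen IV chains of most basement membranes, had 3069 and 2173 normalized counts per kb. *Col4a3* and *Col4a4*, the chains of the mature glomerulus, had 1.61 and 1.80 per kb. *Sparc*, a collagen-binding matrix protein, had the highest level per kb of this list with 5087. *Col4a1* stood 3.16 times above *Lamc1* and 2.49 times above *Nid1* per kb.

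Of 8 other laminin receptors, 7 reached 1000 normalized counts, against 30.1% of all genes with a mean above 0. *Dag1*, the gene of dystroglycan, had 965 normalized counts per kb, which was 2.90 times *Itga3* and 3.45 times *Itga6* (1.85 times *Itga6* per kb of longest transcript). *Rpsa* had 8597 per kb, but it encodes a ribosomal protein as well as a reported laminin receptor. Of 23 other integrin ligands, 21 reached 100 normalized counts, against 61% of all genes with a mean above 0. Per kb these ligands ran from 29.1 for *Nov* to 3721 for *Col3a1*, a fibrillar collagen of mesenchyme.

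Inside the cell, 25 of 26 listed integrin adaptors and adhesion kinases were found, all above 0. Of these, 17 reached 1000 normalized counts, against 30.1% of all genes with a mean above 0. *Tln1*, a talin that activates integrins, had 745 normalized counts per kb, 5.62 times its paralog *Tln2*, and 3.00 times per kb of coding length. *Fermt2*, the kindlin of most adherent cells, had 833 per kb, 7.87 times the blood cell kindlin *Fermt3* and 21.7 times the epithelial kindlin *Fermt1*. *Ilk*, the kinase-like partner of the parvins, had 1271 per kb, or 0.371 of *Itgb1*. *Parvg*, the parvin of blood cells, was lowest of the list with 18.2 per kb.

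Markers of the tissues of the embryo and of tissues around it were measured in the same pool. A mean above 0 was common, being found for 20665 of all 24302 genes. Lists for neural tube, heart and muscle, liver and yolk sac, limb, somite and cartilage, and endothelium had all their genes above 0. Their median mean normalized counts lay between 2283 and 4844. All 7 markers of placenta and decidua were above 0, from 43.1 normalized counts per kb for *Ascl2* to 9045 for *Prl8a2*, although the labelled tissue is the embryo. The pooled mean does not show which embryos or genotypes this RNA came from. In the paper, genes usually limited to the placenta were frequent among the top upregulated genes of the homozygous embryos. The paper also describes those embryos as growth retarded, and they are part of the pool. The part of placenta and decidua in the laminin and integrin levels was not tested. All 10 markers of parietal endoderm, the cell layer that lays down Reichert's membrane, were above 0 with a median of 8135, but 4 of them are themselves laminin or nidogen genes. Their part in the laminin levels was not tested. Of 6 embryonic red cell markers 5 were above 0, but of these *Hba-a2* was only just above 0. *Hba-a1* was listed at 0 beside 136056 for *Hbb-y*. Reads of the near-identical *Hba-a1* and *Hba-a2* copies cannot be told apart. *Wwc2* itself had a mean normalized count of 2117 over the 10 embryos, a mean of all genotypes that does not check the labels.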

How the data were processed

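The authors built directional libraries from poly(A) RNA of the 10 embryos, trimmed reads with Trimmomatic (0.33 in the submitters' processing notes), used HISAT2 for alignment to mm10 and HTSeq for gene counts, and normalized the counts with DESeq2. The strand setting of the counting and the other versions are not given in the sources used here. The deposited tables hold, per gene, the mean normalized count over all embryos (treated as a signal, since it is no raw count) and the authors' own comparisons (fold changes, standard errors, statistics and p-values). The comparisons were not used. The deposited tables hold no values per embryo, so the depth of each library is unknown and no error can be given. For the same reason the planned tests between genotypes were not run.

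GENCODE M21 (GRCm38) holds 22770 of the 22835 Ensembl identifiers in the table, and its union exon length gave the level per kb for 19443 genes with a mean above 0. Shares, percentiles, ratios and CG counts were computed in Python 3.11.15 with pandas 2.3.3, numpy 2.4.6 and scipy 1.17.1, and the share and percentile functions were tested on simulated data. The genes found by symbol are given by level, and those leading, lowest or over 10% of their class in full. The values of 1 of the 42 genes and of 1 marker gene are not reported here, although class totals and counts include them. The genes and lists were chosen with earlier results of these data known. Companion and marker genes came only from lists of textbook roles.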

Additional observations from a re-analysis of the deposited data

How the results depend on the processing

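Every level here is a single mean over 10 embryos, so a moved value cannot be set against a spread between replicates. Per kb of the longest transcript, of the longest coding length and without length correction, in that order, the share of *Lama5* was 31.9%, 30.8% and 40.9% (40.4% per kb of union exon), of *Lamb1* 70.8%, 70.7% and 71.4% (60.5%), of *Lamc1* 85.5%, 87.5% and 89.0% (87.0%), of *Itga5* 20.6%, 17.0% and 16.8% (24.96%), of *Itgb1* 69.7%, 69.2% and 68.7% (69.8%) and of *Fn1* 44.5%, 39.7% and 45.3% (38.1%). In the same order, integrin beta over alpha was 1.78, 1.68 and 1.27 (2.24), and laminin beta over alpha 1.41, 1.40 and 0.909 (1.22). The leading gene changed in 1 class, the laminin alpha chains. The median percentile of the 42 genes was 65.5 among genes of at least 10 normalized counts, 71.9 among all genes of the table and 54.7 by level per kb (66.9). Of the 42 levels per kb, 9 rose by over 1.5 times with the longest transcript and 25 with the coding length, since these lengths are shorter than the union. The coding length from GENCODE was chosen after seeing the data, in place of one from RefSeq proteins, which was not run. The alternatives to the tests between genotypes (another tool, no filter, leaving out each embryo) were not run. No paired analysis was possible because the columns used carry 1 mean over all embryos and no replicate numbers.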
